A study of Equus caballus with 14 samples.

Results

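In 5 equine corpora lutea biopsied on day 11 and again on day 13 after ovulation, 100 genes were lower on day 13 in every gland and had the lowest mean change among the eligible genes that were. They were chosen from their own measured values: among 30371 genes with read counts, 10135 had a mean of at least 5 CPM (counts scaled to the library total) and were not among the 100 most abundant, 319 of these were below 0 in all 5 glands, and the 100 with the lowest mean log2(CPM + 0.1) at day 13 minus day 11 were kept. Those 319 genes are 3.15% of the eligible genes, and 232 genes, 2.29%, were above 0 in all 5 glands. In a single gland the share of eligible genes below 0 ran from 38.3% to 68.3%. The counts that such shares alone would give were not taken, so 319 against 232 is no result about falls. The fall itself is the rule of choice and is described below without a test.

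The corpus luteum forms from the ovulated follicle and secretes progesterone, which holds the uterus ready for an embryo. In a cycling mare it regresses when the uterus releases prostaglandin F, and an early conceptus prevents that release. Days 11 and 13 fall before regression would usually be under way, around the time when the uterus responds to the presence of a conceptus.

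The tissue came from healthy, normally cycling light breed mares, by needle biopsy through the vaginal wall, and mares were classed as pregnant or non-pregnant. The 14 libraries fall into 4 groups, NP11 and P11 for non-pregnant and pregnant mares on day 11, with 4 libraries each, and NP13 and P13 for day 13, with 4 and 2. The labels name 6 mares and 8 glands. The mare Emma gave the glands Emma (pregnant) and Emma2 (non-pregnant), the mare Kate gave the glands Kate and Kate2 (non-pregnant), and Cornelia (pregnant) and Kiwi (non-pregnant) gave 1 gland each. These 6 glands were sampled on both days, so each day 13 library came from a gland that had already been biopsied, and day and an earlier biopsy cannot be told apart. The rule used the glands Emma, Cornelia, Kiwi, Kate2 and Emma2, which come from 4 mares. The gland Kate was not used, and its label changes from pregnant at day 11 (P11 replicate 2) to non-pregnant at day 13 (NP13 replicate 1). Roanie (non-pregnant, NP11 replicate 1) and Gisela (pregnant, P11 replicate 3) were sampled at day 11 only. By the dates in the titles, Cornelia and Emma2 were biopsied in August and the other glands in June. The library totals ran from 20182039 to 32186736 counts. Genes carry Ensembl identifiers, none of which could be matched to a symbol. The identity of the members, the luteal markers and the sequences of the members are therefore not analysed here. In bulk tissue, fewer cells of a type and less RNA per cell cannot be told apart.

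The falls were small. The mean change over the 5 glands had a median of -0.29 on the log2(CPM + 0.1) scale, a fall of 18.2%, beside -0.0038 over all eligible genes. It ran from -1.96 in the first member to -0.23 in the last, and was below -0.5 in 9 members and below -1 in 1. The last 3 members inside the limit had mean changes of -0.229, -0.228 and -0.227, and the 3 genes just outside it had -0.2220, -0.2218 and -0.2217. The list thus ends in a continuous run of values. Members were somewhat less abundant than the eligible genes, with a median of 21.0 CPM against 26.7 CPM. They ran from 5.16 to 600 CPM, and 24 were under 10 CPM, against 16.9% of eligible genes. In 88 members every library held at least 100 counts, and in 4 members some library held under 50.

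By gland, the median change of the members was -0.28 in Emma, -0.27 in Cornelia, -0.33 in Kiwi, -0.34 in Kate2 and -0.26 in Emma2. All eligible genes had medians of -0.01, 0.01, 0.06, -0.01 and -0.09 in the same order. Kate2 had the largest fall of the 5 glands in 33 members and Kiwi in 24, while Emma had it in 11. Emma2 had the smallest fall in 32 members. Each gland had falls close to 0, and the smallest ran from -0.0012 in Kiwi to -0.016 in Cornelia. Counting intervals were not taken for these glands. Falls below -1 were seen in 8 members in Kate2, 3 in Kiwi, 1 in Emma2, and none in Emma or Cornelia. For these counts the shares over eligible genes were not taken, so they are no result about the members. Falls below -0.5 were seen in 31 members in Kate2, 22 in Kiwi, 18 in Emma, 15 in Cornelia and 14 in Emma2. The shares of eligible genes were 3.34%, 3.48%, 4.63%, 1.96% and 7.60% in that order. The SD of a member's change over the 5 glands had a median of 0.20, against 0.21 for the eligible genes.

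**Figure D1:**
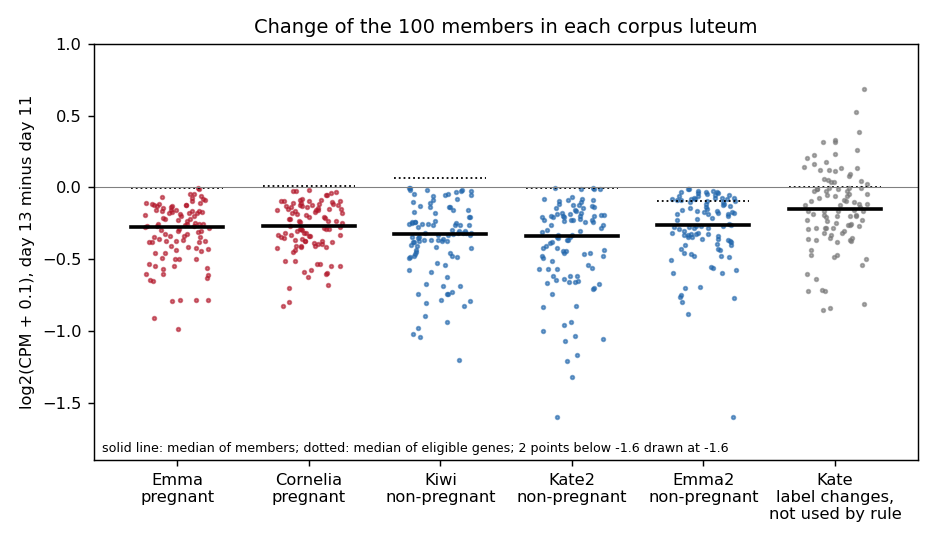
Change of each of the 100 members (points, log2(CPM + 0.1) at day 13 minus day 11) in the 6 glands sampled on both days, with the median of the members (solid line) and of the eligible genes (dotted line). The 5 glands on the left chose the members and lie below 0 by rule, with 2 points under -1.6 drawn at -1.6; in the Kate gland, which did not, 26 members lie above 0.

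The first member, ENSECAG00000024845, owed its place to 2 glands. It fell from 51.8 to 2.40 CPM in Kate2, or from 1620 to 64 counts, and from 19.8 to 0.925 CPM in Emma2, or from 582 to 21 counts. In the other 3 glands it was low on both days: 0.962 and 0.435 CPM in Emma, 1.77 and 1.63 CPM in Cornelia, and 0.364 and 0.347 CPM in Kiwi. Its mean change of -1.96 had an SD of 2.19 (n = 5 glands), larger than the mean. The high values were in non-pregnant glands at day 11, and Roanie, also non-pregnant and not used by the rule, held 7.30 CPM, whereas Kiwi, non-pregnant too, held the lowest value of any day 11 library.

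The second member, ENSECAG00000033240, fell more evenly, with a mean change of -0.62 ± 0.35 (SD, n = 5 glands). Emma went from 17.9 to 11.5 CPM and Cornelia from 2.97 to 1.94 CPM. The fall was from 6.39 to 6.00 CPM in Kiwi, from 3.26 to 1.53 CPM in Kate2 and from 15.7 to 9.16 CPM in Emma2. In the Kate gland it stood at 2.15 CPM on day 11 and 2.39 CPM on day 13. Both day 13 values of the mare Emma lay above every day 11 value of Kate, Cornelia and Kiwi.

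The next 10 members had mean changes from -0.62 to -0.48 at mean levels of 8.41 to 134 CPM. Single changes among these 10 genes and 5 glands ran from -1.32 to -0.01. The largest fall was in Kate2 for 5 of these 10 and in Kiwi for 3. The most abundant member, ENSECAG00000020022, had a mean level of 600 CPM and a mean change of -0.42 ± 0.39 (SD, n = 5 glands). Its level fell from 605 to 307 CPM in Kiwi and from 1143 to 746 CPM in Kate2, whereas Emma held 451 and 437 CPM and Emma2 579 and 549 CPM, with 676 and 510 CPM in Cornelia.

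Together the members made up 0.473% to 0.816% of a library's counts. Their summed level in Emma went from 5735 to 4751 CPM and in Cornelia from 6682 to 5450 CPM. It went from 6591 to 4733 CPM in Kiwi, from 8155 to 5987 CPM in Kate2 and from 6491 to 5665 CPM in Emma2. The drops were 17.2%, 18.4%, 28.2%, 26.6% and 12.7%. Even so the days overlapped between glands: Kate2 at day 13 lay above Emma at day 11, and Roanie and Gisela, at 5471 and 5627 CPM on day 11, lay below Emma2 at day 13. None of the 100 members had all 6 day 13 libraries below all 8 day 11 libraries, and 0% of eligible genes did.

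**Figure D2:**
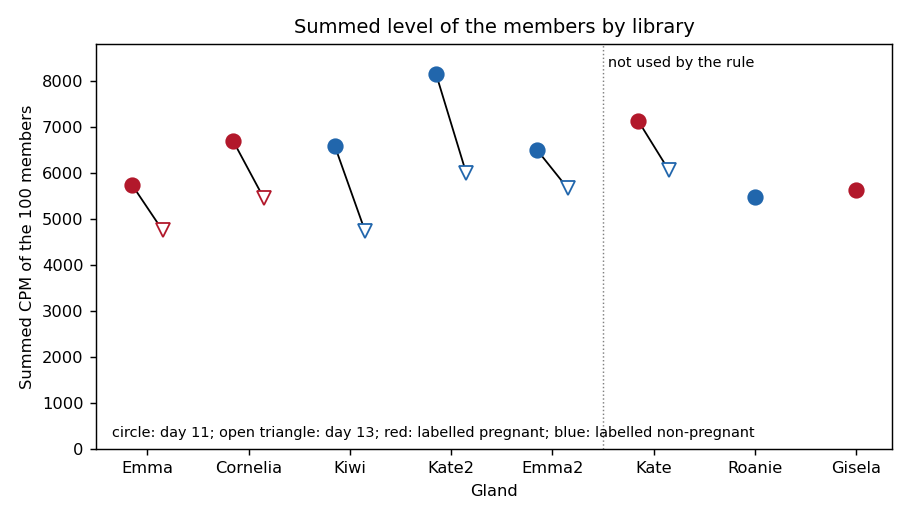
Summed CPM of the 100 members in each of the 14 libraries, by gland and day (circles, day 11; open triangles, day 13), with glands used by the rule left of the dotted line. Within every gland sampled on both days the sum is lower at day 13, by 12.7% to 28.2%, while single day 11 values of Roanie and Gisela lie among the day 13 values of other glands.

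The Kate gland gives a reading of day 13 minus day 11 outside the rule. Its label also changes from pregnant to non-pregnant, so day and status label cannot be told apart in this gland. There 74 of the 100 members were lower on day 13, against 49.6% of eligible genes, and 26 were higher. The members' median change was -0.15 against 0.0022 for all eligible genes and -0.29 for the members' mean in the glands that chose them. The summed level went from 7120 to 6053 CPM, a drop of 15.0%. The 95% counting interval of the change (exact, from the counts of the pair of libraries) lay below 0 for 42 members, against 24.5% of eligible genes, and above 0 for 11 members, against 26.1%. For 47 members it spanned 0. These intervals cover counting error only. A single gland has no replicate, so the Kate values carry no test, and the mare Kate also gave Kate2, which the rule did use.

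Members at the head of the list did not stand far apart from the rest in the Kate gland. Of the 50 with the lowest mean change 40 fell there, with a median of -0.17, and of the other 50 it was 34, with a median of -0.10. The largest fall was that of ENSECAG00000010418, from 3.75 to 2.02 CPM, a change of -0.86 with a 95% counting interval from -1.41 to -0.38. ENSECAG00000024845 followed at -0.84, from 2.11 to 1.13 CPM, on 53 and 28 counts. The largest rise was that of ENSECAG00000016336, from 11.2 to 18.1 CPM, a change of 0.69 with an interval from 0.47 to 0.91, although it had fallen by 0.33 on average in the other 5 glands. ENSECAG00000022532 rose from 6.14 to 8.90 CPM, a change of 0.53 with an interval from 0.23 to 0.84. For both of these the day 11 value of Kate was the lowest of all 14 libraries.

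Of all 319 genes below 0 in the 5 glands, 207 (64.9%) were also below 0 in the Kate gland, with a median of -0.08. Of the 232 genes above 0 in the 5 glands, 119 (51.3%) were above 0 there, with a median of 0.01. The difference between these shares was not tested.

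The same rule was also applied to 4 of the 5 glands at a time, and the 100 genes so chosen were read in the gland left out, an analysis added after the first results were seen. Read in Emma, 74 of the 100 were below 0, against 50.9% of eligible genes, with a median of -0.17. Read in Kate2 it was 58, against 51.4%, with a median of -0.08. In Emma2, 72 were below 0, but so were 68.3% of eligible genes, and the medians were -0.08 and -0.09. In Kiwi, 44 were below 0, against 38.3%, with a median of 0.06. In Cornelia only 29 were below 0, against 47.7%, and the median was 0.33, so genes that fell most in the other 4 glands were for the most part higher on day 13 in Cornelia. The glands Emma and Emma2, and Kate and Kate2, come from the same mare in each case, whereas Cornelia and Kiwi are the only glands of their mares. Cornelia and Emma2 were also the only glands biopsied in August. Neither feature was tested. The list of members depends on the glands used: without Cornelia 29 of them would have been chosen, and without Kiwi 44. These repeat the counts above, because a chosen gene also below 0 in the gland left out is nearly always a member.

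**Figure D3:**
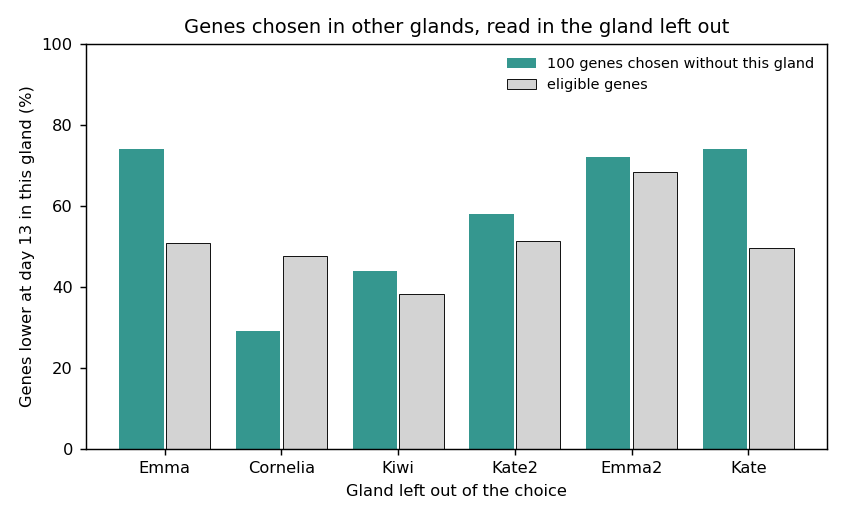
Percentage of genes lower at day 13 in a gland that took no part in choosing them (coloured bars, 100 genes each) and of all eligible genes in the same gland (grey bars). The gap is widest in Emma (74 against 50.9%) and Kate (74 against 49.6%), narrow in Kiwi, Kate2 and Emma2, and turned round in Cornelia (29 against 47.7%).

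The day 11 libraries of Roanie, Gisela and Kate were placed between the members' mean levels at day 11 and day 13 in the 5 glands. In Gisela 57 members were nearer to the day 11 mean, in Kate 53 and in Roanie 49. In the Kate library of day 13 it was 37. These counts moved with the scaling of the libraries, as given below. On a scale where 0 is the day 13 mean and 1 the day 11 mean, the median member stood at 0.70 in Gisela, 0.60 in Kate and 0.44 in Roanie at day 11, and at 0.13 in Kate at day 13. The choice of members favors high day 11 values in the 5 glands, so values below 1 in other day 11 libraries are no measure of a difference between glands.

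The scaling of the libraries changed the picture in Emma2. With TMM factors, which use the bulk of genes in place of the total count, the median of all eligible genes in Emma2 moved by 0.12, from -0.09 to 0.02. The number of members below 0 there became 70 of 100, against 99 in Emma, 100 in Cornelia, 100 in Kiwi and 98 in Kate2. In all, 67 members were below 0 in the 5 glands under that scaling. In the Kate gland 74 members were below 0 under either scaling, and the median was -0.17 with TMM. The members nearer to the day 11 mean became 47 in Gisela, 61 in Kate and 46 in Roanie at day 11. In the Kate library of day 13 the number became 45, close to those of Gisela and Roanie.

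The falls of pregnant and non-pregnant glands are set side by side. The mean change in the 2 pregnant glands (Emma and Cornelia) had a median of -0.27 over the members, and that in the 3 non-pregnant glands (Kiwi, Kate2 and Emma2) a median of -0.31. Eligible genes had medians of 0.01 and -0.01. The non-pregnant mean was the lower in 64 members and in 56.6% of eligible genes. In 7 members all 3 non-pregnant glands fell more than both pregnant ones, and in 7 the reverse held. The same counts over eligible genes were not taken, so neither count is a result about the members. Since these changes chose the members, no test is given.

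The level of the members at a given day was compared between pregnant and non-pregnant mares, which the rule did not do. It was not wholly free of the rule, because the choice favors high day 11 values in 3 of 4 NP11 libraries and in 2 of 4 P11 libraries, and low day 13 values in 3 of 4 NP13 and both P13 libraries. At day 11, edgeR's quasi-likelihood test called 0 of the 100 members at an adjusted p of 0.05, and 0% of the 15437 genes tested. At an unadjusted p under 0.05 there were 4 members, against 4.13% of all genes tested, 1 higher in pregnancy (2.18% of all genes) and 3 lower (1.96%). The members' log2 fold changes had a median of -0.06, with 63 lower in pregnancy, beside a median of 0.01 over all genes tested. With the mare as a fixed block, 14 members were at an unadjusted p under 0.05, against 4.99% of all genes, and 11 of these were lower, against 2.36%. None passed after adjustment. The status contrast within mares rests on Emma and Kate, the mares with both labels, and of their 4 glands only Kate took no part in the choice. DESeq2 called 0 members, against 0.00895% of all genes, and also had 4 at an unadjusted p under 0.05, against 3.22%. In limma with the mare as a random block, 4 members had an unadjusted p under 0.05, against 4.32% of all genes, and edgeR gave 2 without P11 replicate 4, against 3.25%.

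ENSECAG00000005359 had the smallest p among members higher in pregnancy at day 11. The P11 libraries held 39.6, 40.6, 39.8 and 46.8 CPM and the NP11 libraries 25.7, 31.5, 37.1 and 34.5 CPM, so the groups did not overlap. edgeR gave 0.41 ± 0.16 (SE) as the log2 fold change, at an adjusted p of 1. The fold change was 0.23 on the log2 scale with the mare as a block, and over the alternatives the adjusted p in edgeR, limma and DESeq2 ran from 0.895 to 1. ENSECAG00000024845 had the smallest p among those lower. The P11 libraries held 0.962, 2.11, 2.90 and 1.77 CPM, and the NP11 libraries 7.30, 0.364, 51.8 and 19.8 CPM. Kiwi was below every P11 library, and the other 3 NP11 libraries were above them all. edgeR gave -3.34 ± 0.97 (SE) on the log2 scale at an adjusted p of 1, from 0.544 to 1 over the alternatives, and it was -2.17 without NP11 replicate 3. Since the high values of Kate2 and Emma2 put this gene on the list, the difference is not independent of the choice.

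At day 13, with 2 pregnant and 4 non-pregnant libraries, edgeR called 0 members and 0% of all genes. Unadjusted p was under 0.05 for 2 members, against 2% of all genes, 1 higher (0.926% of all genes) and 1 lower (1.08%). DESeq2 called 0 members and 0% of all genes, and also had 2 members at an unadjusted p under 0.05, against 1.9%. The median log2 fold change was -0.09 over the members, with 57 lower in pregnancy, and -0.00045 over all genes. The mare block gave 8 members at an unadjusted p under 0.05, against 2.82% of all genes. All 8 were lower in pregnancy, against 1.61% of all genes. At day 13 only the mare Emma has libraries with both labels, and the rule used both of her glands. Her pregnant gland was biopsied in June and her non-pregnant gland in August, so status and month cannot be told apart within her. In limma with the mare as a random block 0 members had an unadjusted p under 0.05, against 2.31%. Single libraries moved both the count and its direction in edgeR. Without P13 replicate 1 it was 10, against 4.34% of all genes, and 9 of these were lower in pregnancy, against 1.88%. Without NP13 replicate 4 it was 8, against 3.88%, and 7 of these were higher, against 2.11%. It was 0 to 2 with any 1 of the other 12 libraries left out. ENSECAG00000024631 was at 38.5 and 90.1 CPM in P13 and at 26.3, 23.4, 12.5 and 39.1 CPM in NP13, where Emma2 lay above the lower pregnant value. edgeR gave 1.29 ± 0.50 (SE) as the log2 fold change, at an adjusted p of 0.999. The log2 fold change was 0.64 without P13 replicate 2, 0.05 with the mare as a fixed block and 0.72 in limma with the mare as a random block. The high value was that of Cornelia, which also held the highest day 11 value, 96.4 CPM. ENSECAG00000014474 was at 23.3 and 18.8 CPM in P13 and at 25.5, 41.6, 32.4 and 21.9 CPM in NP13, again with overlap at Emma2. The difference was -0.53 ± 0.24 (SE) on the log2 scale at an adjusted p of 0.999 in edgeR, and -0.32 without P13 replicate 2 and -0.17 with the mare as a block.

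Averaged over both days, edgeR called 0 members and 0% of all genes for pregnancy, and 7 members had an unadjusted p under 0.05, against 4.25% of all genes, 2 higher (2.44% of all genes) and 5 lower (1.81%). With the mare as a block it was 18, against 4.73% of all genes, and 17 of these were lower in pregnancy, against 2.35%. With the mare as a random block in limma it was 5, against 2.85%, of which 3 were lower, against 1.44%. Without P13 replicate 1 edgeR gave 12, against 5.45% of all genes, and without P13 replicate 2 it gave 2, against 3.03%. DESeq2 called 0 members and 0% of all genes, and had 8 members at an unadjusted p under 0.05, against 3.44%. The edgeR and DESeq2 fits had no term for the gland. The day 11 and day 13 libraries of a gland thus counted as independent, and these p-values can be too small. With the mare as a fixed block, the status contrast rests on Emma and Kate. Of their glands only Kate took no part in the choice, and the glands of Emma also differ in biopsy month.

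The levels of many members differed between mares, a comparison the rule did not make. In a model with the group as a term, edgeR called 37 of the 100 members for a difference among the 6 mares at an adjusted p of 0.05, against 9.18% of all genes tested and 11% where only genes at 5 CPM or more were tested, a fit in which 37 members were called as well. The count of members was 19 without P11 replicate 2 (Kate), 16 without NP11 replicate 3 (Kate2), 21 without NP11 replicate 4 (Emma2) and 23 without NP13 replicate 4 (Emma2), against 3.5%, 3.65%, 3.41% and 4.49% of all genes in the same fits. Mares and their glands cannot be told apart for the 4 mares with 1 gland. The model had no term for the gland. The day 11 and day 13 libraries of a gland thus counted as independent, and the p-values for mare can be too small. The SD of log2(CPM + 0.1) over the 8 day 11 libraries had a median of 0.35 in the members and 0.22 in the eligible genes, and was over 0.5 in 19 members, against 8.02% of eligible genes. Between the mares with the highest and lowest day 11 mean, the median range was 0.86 in the members and 0.53 in the eligible genes, and it was over 1 in 35 members, against 15.8%. A choice by the size of a change favors genes that vary between libraries for any reason, and how far that accounts for these shares was not tested.

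**Figure D4:**
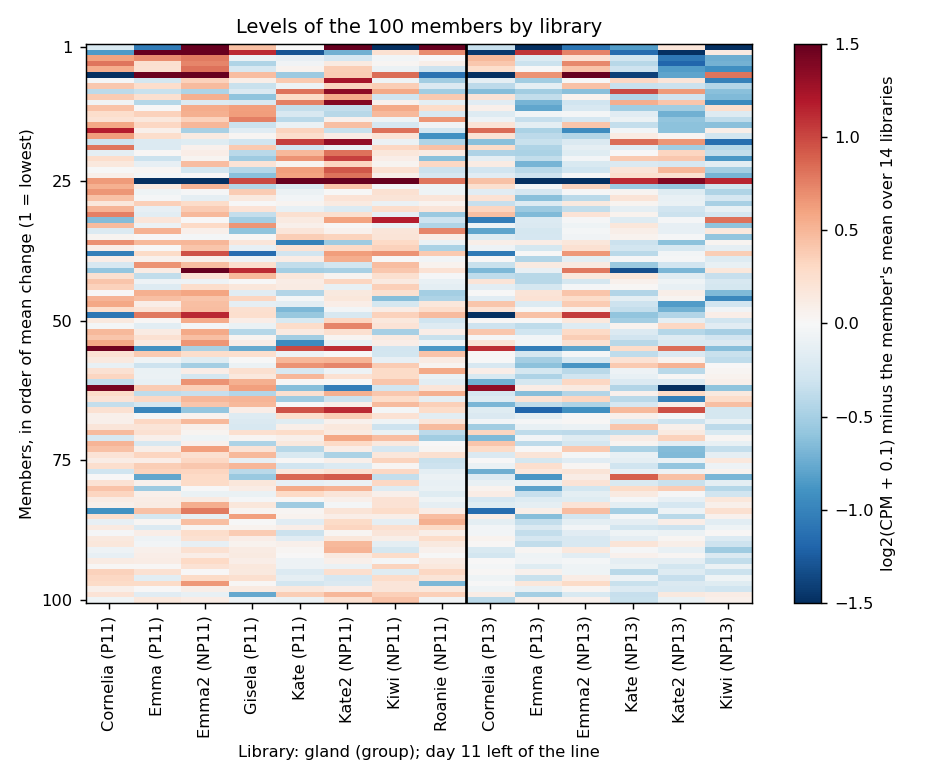
Log2(CPM + 0.1) of the 100 members (rows, in order of mean change) in the 14 libraries, each member centred on its own mean, with day 11 left of the line. The day 11 side is redder on the whole, but single rows keep their colour across both days of a mare, as where 37 members differed between mares.

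ENSECAG00000041480 had the smallest p for the mare, with an adjusted p of 2.07e-05 in edgeR. All 4 libraries of the mare Emma were low, at 1.57 and 0.870 CPM in the gland Emma and 1.26 and 1.19 CPM in Emma2. The other 10 libraries ran from 12.8 CPM in Cornelia at day 13 to 33.8 CPM in Kate2 at day 11, with no overlap. ENSECAG00000035150 followed with an adjusted p of 0.000301 in edgeR. It was lowest in Cornelia, at 6.85 and 4.56 CPM, then in the mare Kate, at 9.81 and 9.71 CPM in Kate and 12.4 and 10.8 CPM in Kate2. The mare Emma was highest, at 25.4 and 19.98 CPM in Emma and 32.1 and 30.3 CPM in Emma2, while Kiwi held 18.7 and 15.7 CPM, Roanie 20.3 CPM and Gisela 17.5 CPM. For both genes the gap between the highest and the lowest mare was larger than the fall between days in any gland.

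At day 11, Cornelia had the highest mean of the 6 mares in 27 members, against 15.6% of eligible genes, and Kate in 24, against 11.9%. Roanie and Gisela, whose glands the rule did not use, were highest in 9 and 13 members, against 22.3% and 24.8% of eligible genes, the direction that the choice favors.

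**Figure D5:**
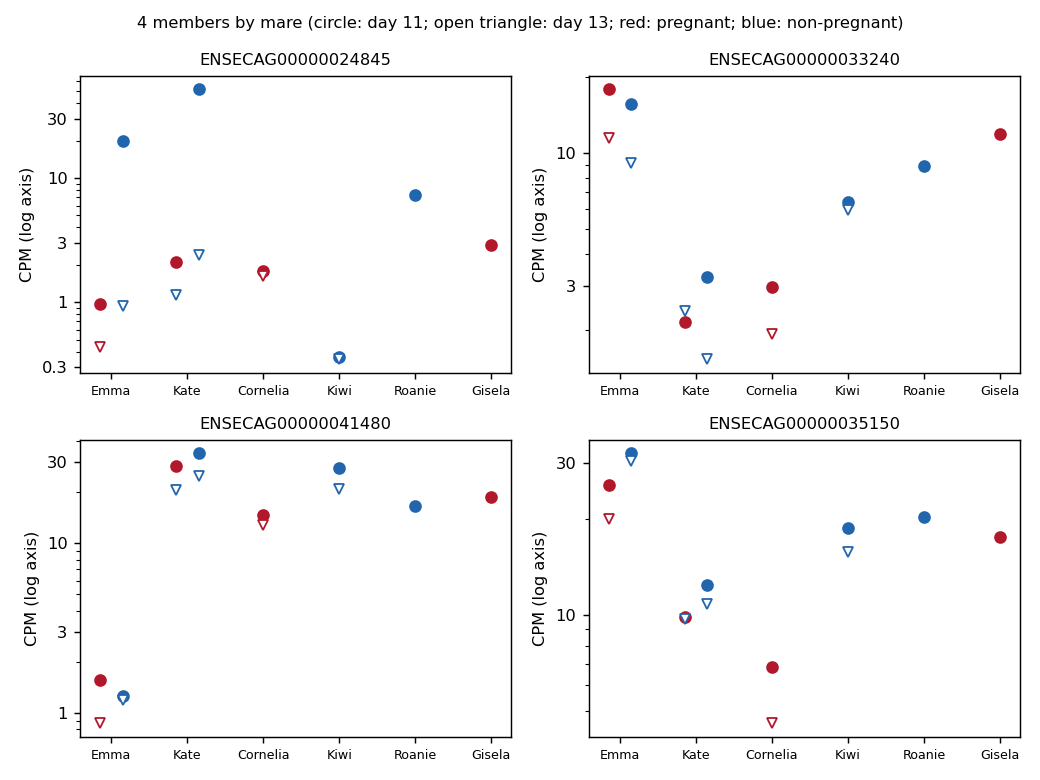
CPM (log axis) of 4 members in each library, by mare (circles, day 11; open triangles, day 13; red, pregnant; blue, non-pregnant; for Emma and Kate the second gland is drawn to the right). ENSECAG00000024845 is highest in the day 11 libraries of Kate2 and Emma2, ENSECAG00000041480 is below 2 CPM in every library of Emma, and the 2 other genes have their highest value in a library of Emma.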

How the data were processed

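The authors deposited raw counts of reads per Ensembl gene for 14 poly(A) directional libraries prepared from 1000 ng of RNA, per the labels' protocols. Trim Galore, STAR and the build EquCab3.0 are named in the submitters' processing notes. Their versions, the counting tool and the handling of reads shared by similar genes were not stated there, so counts of near-identical or overlapping genes are uncertain. CPM (counts per 1000000) was taken on the column sum, with a pseudocount of 0.1 on the log2 scale. The members and all lists were chosen with earlier results of these data known.

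Status and mare were tested over all genes kept by filterByExpr with edgeR 4.0.16 (R 4.3.3), TMM scaling, a quasi-likelihood F test and Benjamini-Hochberg adjustment over all genes, in a model with 1 mean per group over 14 libraries. The mare was added as a term for the mare test and as a fixed block. The titles name the mare, which pairs libraries by design, and unblocked p-values do not account for that. No model had a term for the gland. SE is the fold change over the square root of F. Alternatives used DESeq2 1.42.0 and limma 3.58.1. Scripts were tested on simulated data.

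Members were to be named by rank of change, extremes in the Kate gland, smallest p for status and mare, and abundance. With 0 identifiers matched to a symbol in a RefSeq table of the horse, 1 or 2 per direction are given for each comparison. The planned gene lists, cell type markers and sequences were not used. Replicate numbers follow sample order and pair nothing.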

Additional observations from a re-analysis of the deposited data

Results flagged for a closer look

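The highest and lowest of 4 libraries were set against the other 3 in 36 sets: the levels of the 11 members named and the members' summed level, in 3 groups each. A single value stood apart, where chance alone would set apart about 1 in 20. ENSECAG00000005359 was at 46.78 CPM in P11 replicate 4 (Cornelia), against 39.56 to 40.62 CPM in the other P11 libraries.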

How the results depend on the processing

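Of the 100 members, 96 were chosen again with a pseudocount of 1, 96 when the most abundant genes were kept, 76 with a minimum of 10 CPM, 73 without Emma, 71 without Emma2 and 67 with TMM scaling. The number was 48 with a minimum of 1 CPM, 34 with no condition on sign, and 29, 44 and 58 without Cornelia, Kiwi or Kate2. No member was called for status under any alternative run. Members at an unadjusted p under 0.05 with the mare as a replicate block were 14 at day 11, 8 at day 13 and 18 over both days. At day 13 there was 1 with a minimum of 5 CPM, 1 with biopsy month as a covariate, 1 without the Kate gland and 0 with limma and the mare as a random block. Leaving out 1 library gave 2 to 6 at day 11, 0 to 10 at day 13, 2 to 12 over both days, and 16 to 40 members called for mare. Where P13 is left with 1 library, that library is assumed to vary like the rest. The cause of these moves was not tested. In the Kate gland 74 members were below 0 under each scaling and pseudocount, and the changes of the 4 genes named there kept their sign. That of ENSECAG00000024845 went from -0.84 to -0.55 with a pseudocount of 1. Members under 10 CPM rest on fewer counts than the rest. Over all 100 members, the median 95% counting interval in the Kate gland was 0.18 on either side.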
